A study of Mus musculus with 8 samples.

Results

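Interferon signalling was followed through 9 genes in cultured mouse embryonic fibroblasts, the matrix-making cells of embryonic connective tissue, known as MEFs. They are the interferon regulatory factors Irf1, Irf2, Irf3, Irf7 and Irf9, the signal transducers Stat2 and Stat3, and Ifnar1 and Ifnar2, which encode both chains of the type I interferon receptor. The genes were picked by name from a count table of 23366 gene symbols, with earlier results of these data known. Each symbol was read from its transcript row with the highest total over 8 libraries. All 9 were in the table.

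The 8 libraries came from 4 groups of 2, all cells of a C57BL/6 background at passages 3 to 5, per the labels. The groups were cells labelled as knockouts (KO) of Kdm3a, a histone H3K9 demethylase gene, starved of glucose for 12 h; KO-labelled cells that were fed (0 h); wild-type (WT) cells starved for 12 h; and WT cells that were fed. Fed cells grew in DMEM with 10% FBS, and starved cells were held in DMEM lacking glucose with 10% dialyzed FBS. No group was kept fed for 12 h, so loss of glucose cannot be told apart from the new medium, the dialyzed serum and the elapsed time. "Starvation" stands for all of these. The labels do not say how the knockout was made, how many embryos gave cells or whether the 2 libraries of a group came from separate cultures. The p-values therefore measure only the spread between these libraries, which may be technical.

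Type I interferons bind the receptor formed by IFNAR1 and IFNAR2, which activates JAK kinases on the inner side of the membrane. The kinases phosphorylate STAT proteins, and STAT2 joins IRF9 in the complex ISGF3, which binds interferon-stimulated response elements (ISRE) in the promoters of antiviral genes. IRF3 and IRF7 act one step earlier: viral nucleic acid leads to their phosphorylation, and they then switch on interferon genes. IRF1 activates and IRF2 mostly represses overlapping promoters, and STAT3 serves chiefly cytokines of the interleukin-6 family. Fibroblasts are a classical source of interferon beta.

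The letters upstream of 4 of the genes are shown because these genes cover the patterns described below: Stat2 and Irf7, which stood far higher in KO-labelled cells, Irf1, which fell with starvation under either label, and Irf2, whose starvation response depended on the label. RefSeq promoter windows (assembly GRCm38.p6) were searched over 250 bases before the transcription start, on both strands, for the ISRE core GAAANNGAAA and for the core of the gamma-activated site (GAS) bound by STAT dimers, TTCNNNGAA. Any letter is allowed at N, and neither motif lies within the other in the windows shown. All 9 genes matched a window by symbol. Capitals mark the matches, and letters that lie inside the counted transcript were left off. The files themselves use another build, mm9, and hold no coordinates.
Stat2, chr10:128270248-128270497, plus strand: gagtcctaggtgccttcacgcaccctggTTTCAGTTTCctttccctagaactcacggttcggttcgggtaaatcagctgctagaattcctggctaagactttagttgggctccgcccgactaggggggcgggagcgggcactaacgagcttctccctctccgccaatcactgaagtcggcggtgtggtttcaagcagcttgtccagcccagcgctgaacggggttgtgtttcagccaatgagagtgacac
Irf7, chr7:141266482-141266674, minus strand: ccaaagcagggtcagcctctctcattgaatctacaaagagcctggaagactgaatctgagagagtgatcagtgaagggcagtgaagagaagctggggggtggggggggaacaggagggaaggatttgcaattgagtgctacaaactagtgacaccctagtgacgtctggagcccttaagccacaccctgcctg
Irf1, chr11:53769764-53770013, plus strand: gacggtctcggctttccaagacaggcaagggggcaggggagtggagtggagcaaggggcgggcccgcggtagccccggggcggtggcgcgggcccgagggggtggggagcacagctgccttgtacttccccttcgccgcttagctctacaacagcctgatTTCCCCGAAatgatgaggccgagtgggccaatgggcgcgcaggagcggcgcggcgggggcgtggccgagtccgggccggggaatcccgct
Irf2, chr8:46739495-46739731, plus strand: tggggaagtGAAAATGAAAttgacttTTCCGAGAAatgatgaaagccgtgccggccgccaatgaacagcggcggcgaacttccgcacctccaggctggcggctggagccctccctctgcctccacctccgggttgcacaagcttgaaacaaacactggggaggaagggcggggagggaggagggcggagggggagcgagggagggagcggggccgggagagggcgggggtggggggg

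The Stat2 window held 1 ISRE core, TTTCAGTTTC, at 222 to 213 bases before the start, read here on the opposite strand. The Irf1 window held 1 GAS core, TTCCCCGAA, at 90 to 82 bases before the start. The Irf2 window held both, an ISRE core GAAAATGAAA at 241 to 232 and a GAS core TTCCGAGAA at 224 to 216 bases before the start. Ifnar2 held a GAS core, TTCCTGGAA, at 214 to 206 bases before its start. Neither core was in the 250 bases before Irf7, Irf3, Irf9, Stat3 or Ifnar1, which says only that these letters are not in these windows. Distances run to the RefSeq start at which the window ends. The counted transcript starts 78 bases from that point for Stat2, 57 for Irf7, 23 for Ifnar1 and 13 for Irf2, and 414 bases away from the nearest window for Irf9. Among 32851 RefSeq windows of the same length, 2.98% held the ISRE core and 7.02% the GAS core.

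The libraries held 38407520 to 53602289 counts, with 2 libraries of a group correlated at 0.991 to 0.995 across genes (Pearson's r of log2 CPM, where CPM are counts scaled by library size to 1000000; a description, since genes are not independent replicates). Kdm3a itself averaged 66.1 ± 0.934 CPM in KO-labelled starved cells, 55.3 ± 0.176 CPM in KO-labelled fed cells, 181 ± 6.82 CPM in WT starved cells and 56.2 ± 0.204 CPM in WT fed cells (mean ± SD, n = 2 each). The fed groups did not differ in it, with a log2 fold change of -0.02 ± 0.04 and an adjusted p of 0.619, so the counts alone do not show the knockout in fed cells and the groups are called KO-labelled. The labels also split by a second property. Xist, whose RNA coats an inactive X chromosome, averaged 1323 and 876 CPM in KO-labelled starved and fed cells, against 1.24 and 1.16 CPM in WT starved and fed cells. Counts of the Y chromosome genes Uty, Kdm5d, Ddx3y and Eif2s3y ran from 0 to 2 per KO-labelled library, against 296 to 1251 per WT library. The Kdm3a label and the sex of the cells cannot be told apart in any comparison of KO-labelled with WT cells. The 12 fibroblast markers summed to 11592 to 21278 CPM per library, a sum carried mostly by Vim, Fn1 and, in some groups, collagen genes, and single markers differed widely. Col1a2, a collagen chain, averaged 264 CPM in KO-labelled fed cells, against 6110 CPM in WT fed cells, while Dcn, a matrix proteoglycan, averaged 51.4 against 2.41 CPM. Thy1, a surface protein, averaged 5.17 CPM in KO-labelled starved cells, against 164 CPM in WT starved cells. With starvation 10 of the 12 fell and 2 rose in KO-labelled cells, against 7 and 3 in WT cells. With library totals in place of TMM scaling these counts were 10 and 1, against 8 and 3. Of all genes, 40.3% fell and 39.4% rose in KO-labelled cells, against 44.8% and 36.7% in WT cells. The part of these markers in the results was not tested. In bulk RNA, fewer cells of a type and less RNA per cell cannot be told apart.

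**Figure D1:**
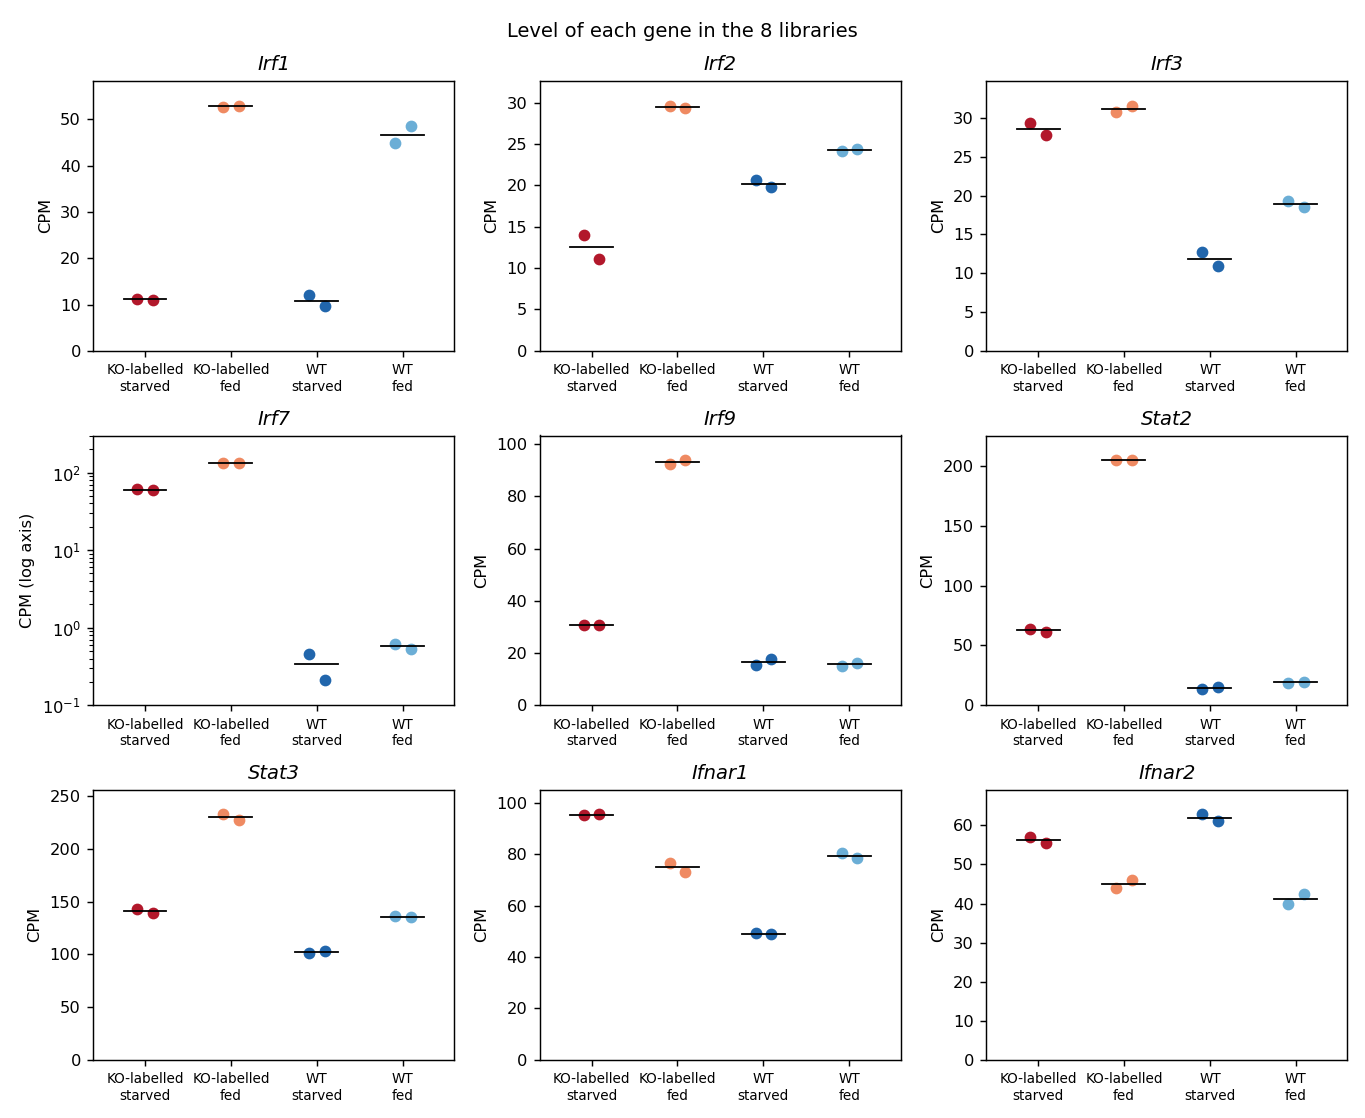
Level of each of the 9 genes in every library, in CPM on the vertical axis, by group on the horizontal axis. Each point is 1 library and each bar the mean of 2. The Irf7 panel has a log axis: its KO-labelled libraries lie between 59.9 and 134 CPM and its WT libraries between 0.212 and 0.625 CPM.

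In starved cells, 6 of the 9 genes were higher in KO-labelled than in WT cells (Irf3, Irf7, Irf9, Stat2, Stat3 and Ifnar1) and 2 were lower (Irf2 and Ifnar2), at a threshold of 0.05 on the adjusted p. Over all 14418 genes tested, 41.9% were called higher and 37.7% lower in this comparison, or 79.6% in either direction. The median log2 fold change was 0.89 over the 9 genes and 0.07 over all genes. In fed cells, 8 were higher in KO-labelled cells and 0 were lower, and only Ifnar1 missed the threshold. The shares over all genes were 34.5% higher and 39.8% lower, or 74.4% in all, and the medians were 0.72 for the 9 genes and -0.06 for all genes. All 9 genes passed the filter on low counts, also when KO-labelled or WT libraries were filtered alone. Since the 9 genes were chosen with earlier results known, their counts and medians in each comparison are a description.

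With starvation, KO-labelled cells had lower levels of 6 of the 9 genes (Irf1, Irf2, Irf7, Irf9, Stat2 and Stat3). Ifnar1 and the Ifnar2 row read here were higher. That Ifnar2 row shares bases with a shorter transcript model, and its parts moved in opposite directions, as given below. Irf3 missed the threshold. Of all genes, 40.3% were called lower and 39.4% higher in this comparison, or 79.7% in all, and the medians were -1.15 for the 9 genes and -0.02 for all genes. WT cells had lower levels of 7 genes and a higher level of Ifnar2, while Irf9 missed the threshold. There, 44.8% of all genes were called lower and 36.7% higher, or 81.6% in all, and the medians were -0.41 and -0.17. The starvation response differed between the labels for 7 of the 9 genes by the interaction term, the log2 change in KO-labelled cells minus that in WT cells. It was positive for Irf3 and Ifnar1 and negative for Irf2, Irf9, Stat2, Stat3 and Ifnar2, against 34.1% of all genes called positive and 30.4% called negative, or 64.5% in all. With calls this common over all genes, a call alone sets a gene apart little, and the sizes below carry the description.

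**Figure D2:**
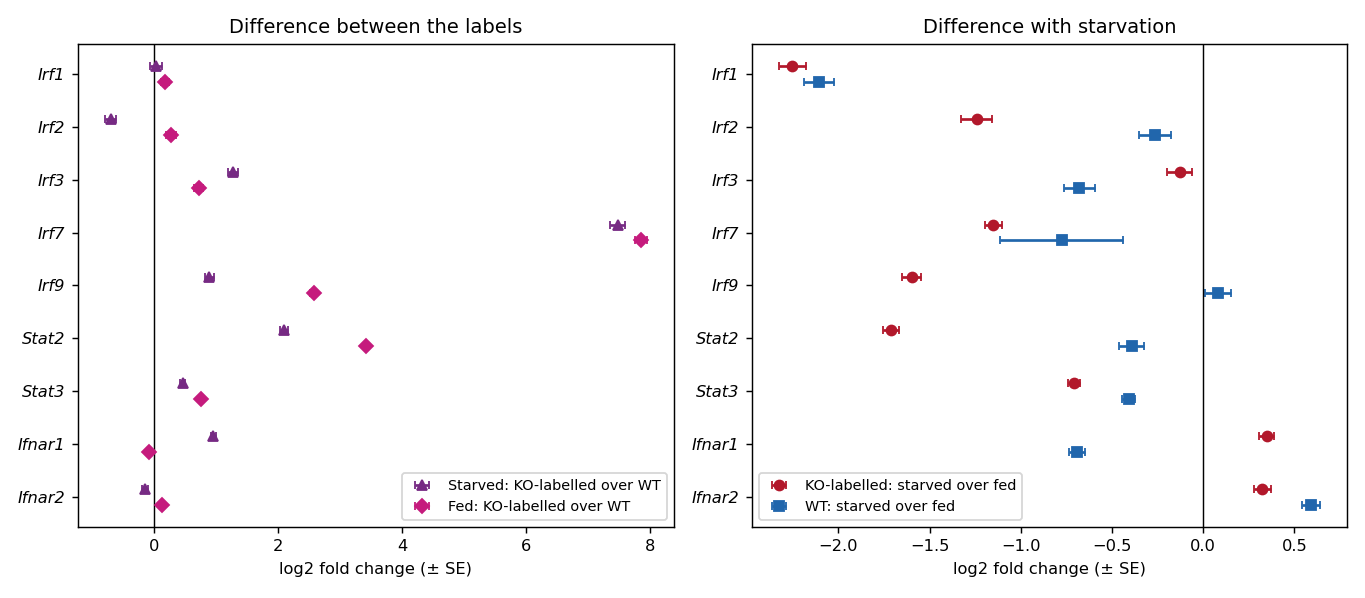
Log2 fold change of each gene with its standard error (SE), horizontal axis: KO-labelled over WT cells on the left, starved over fed cells on the right. Irf7 lies at 7.47 when starved and 7.85 when fed on the left, while on the right Ifnar1 has opposite signs, 0.35 in KO-labelled and -0.69 in WT cells.

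Type I interferon binds Ifnar2 with high affinity and Ifnar1 completes the receptor. Ifnar1 stood at 95.4 and 95.4 CPM in KO-labelled starved libraries and at 76.6 and 73.2 CPM in KO-labelled fed libraries. It stood at 49.3 and 48.9 CPM in WT starved libraries, against 80.3 and 78.4 CPM in WT fed libraries. The 4 groups did not overlap, and starvation moved the gene in opposite directions under the 2 labels. The log2 fold change with starvation was 0.35 ± 0.04 in KO-labelled cells (SE; adjusted p = 9.29e-08) and -0.69 ± 0.04 in WT cells (adjusted p = 4.27e-12), and the interaction was 1.04 ± 0.06 (adjusted p = 3.83e-12). Starved KO-labelled cells held 1.94-fold the level of starved WT cells, while the fed groups differed by -0.08 ± 0.04 (adjusted p = 0.0775), a sign that turned to 0.03 with library totals in place of TMM scaling. The KO-labelled starvation response shrank to 0.09 under that scaling and stayed past the threshold.

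Ifnar2 ran the other way in WT cells. It stood at 57.0 and 55.6 CPM in KO-labelled starved libraries and at 43.9 and 46.1 CPM in KO-labelled fed libraries. In WT libraries it stood at 62.8 and 61.2 CPM when starved, against 39.9 and 42.3 CPM when fed. Starved libraries were above fed ones under either label, by 1.25-fold in KO-labelled cells (adjusted p = 3.23e-06) and by 1.51-fold in WT cells (adjusted p = 6.60e-10). The interaction was -0.27 ± 0.07 (adjusted p = 0.00230). Differences between the labels were small, -0.14 ± 0.05 in starved cells (adjusted p = 0.0140) and 0.13 ± 0.05 in fed cells (adjusted p = 0.0274). With library totals the starved difference turned to 0.18, the KO-labelled starvation response to 0.07 and the interaction to -0.07, the last 2 past the threshold no longer. The fed difference was also lost without KO-labelled fed replicate 2 (0.09) or WT fed replicate 1 (0.08), and the starved one without KO-labelled starved replicate 2 (-0.12).

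Ifnar2 makes a signalling receptor chain and, in mice, a shorter soluble form that lacks the membrane anchor. The table holds a row for each of 2 transcript models: a longer one of 9 exons, 3047 bases and 513 coded residues, and a shorter one of 7 exons, 1099 bases and 248 residues, which lacks the last 2 exons of the longer one (GENCODE vM21, GRCm38). The shorter row held 89.6% and 90.4% of the longer row's count in KO-labelled starved libraries, against 76.6% and 77.7% in KO-labelled fed libraries. It held 92.5% and 93.0% in WT starved libraries, against 77.7% and 74.1% in WT fed libraries. Every starved library was above every fed one. Of the longer model, 2075 bases lie outside the shorter one, and 127 bases of the shorter lie outside the longer, so the count by which the longer row exceeds the shorter is a net difference.

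That excess was 5.92 and 5.35 CPM in KO-labelled starved libraries, against 10.3 and 10.3 CPM in KO-labelled fed libraries. It was 4.73 and 4.30 CPM in WT starved libraries, against 8.92 and 11.0 CPM in WT fed libraries. The excess and the shorter row, a split chosen after its values were seen, moved in opposite directions with starvation. The shorter row changed by 0.55 ± 0.05 in KO-labelled cells and 0.88 ± 0.05 in WT cells (log2; adjusted p = 2.49e-09 and 1.60e-12). The excess changed by -0.87 ± 0.12 and -1.14 ± 0.14 (adjusted p = 1.61e-06 and 1.45e-07). The directions were the same with RLE size factors and with library totals. Whether the excess responded differently under the 2 labels did not pass the test, at 0.27 ± 0.19 (adjusted p = 0.212), although it did with library totals (0.47, adjusted p = 0.0317).

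**Figure D3:**
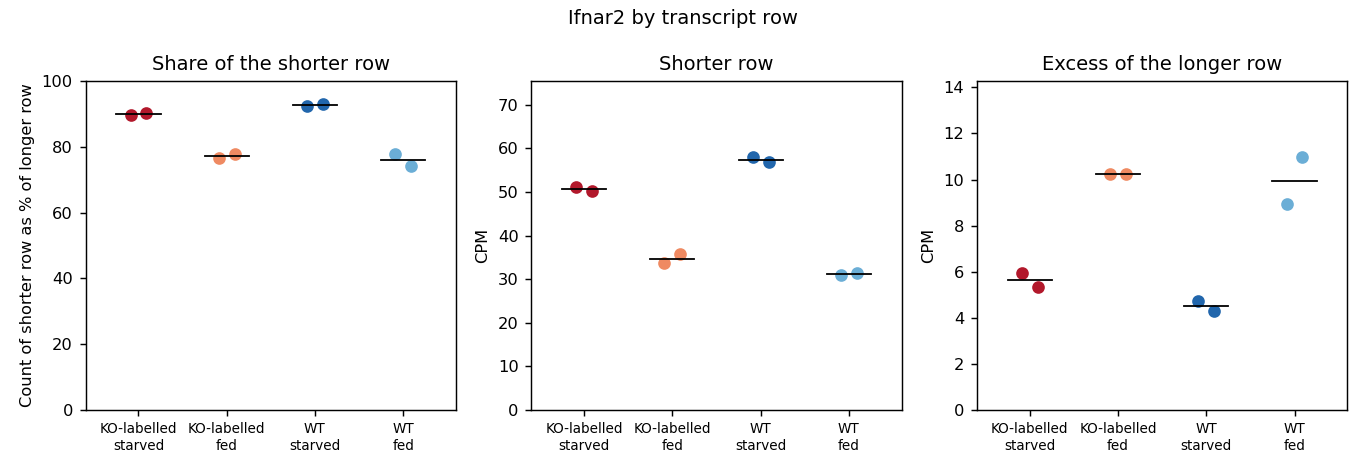
Ifnar2 by transcript row in every library: the shorter row as a percentage of the longer row's count (left), the shorter row in CPM (middle) and the excess of the longer row in CPM (right). Points are libraries and bars the means of 2; starved libraries lie between 89.6% and 93.0% and fed libraries between 74.1% and 77.7% in the left panel.

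Stat2 and Irf9, the partners in ISGF3, were both highest in KO-labelled fed cells. Stat2 stood at 64.1 and 61.1 CPM in KO-labelled starved libraries and at 205 and 205 CPM in KO-labelled fed libraries. It stood at 13.7 and 15.5 CPM in WT starved libraries, against 18.8 and 19.6 CPM in WT fed libraries. No groups overlapped. KO-labelled cells held 4.28-fold the WT level when starved (log2 2.10 ± 0.06, adjusted p = 2.80e-18) and 10.7-fold when fed (3.42 ± 0.05, adjusted p = 8.27e-23). Starvation lowered Stat2 by 3.27-fold in KO-labelled cells (-1.71 ± 0.04, adjusted p = 6.86e-19) and by 1.31-fold in WT cells (-0.39 ± 0.07, adjusted p = 1.47e-05). The interaction was -1.32 ± 0.08 (adjusted p = 8.54e-12). Stat2 kept its direction and its call in every comparison under every alternative run.

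Irf9, the DNA-binding part of ISGF3, stood at 30.9 and 30.6 CPM in KO-labelled starved libraries and at 92.3 and 93.9 CPM in KO-labelled fed libraries. Among WT libraries the starved held 15.5 and 17.6 CPM, against 15.1 and 16.1 CPM in the fed. The WT groups overlapped, and both KO-labelled groups lay above them. KO-labelled cells were 1.86-fold higher when starved (0.89 ± 0.07, adjusted p = 6.23e-11) and 5.95-fold higher when fed (2.57 ± 0.06, adjusted p = 2.11e-19). Starvation lowered the gene by 3.03-fold in KO-labelled cells (-1.60 ± 0.05, adjusted p = 8.36e-17). In WT cells the change was 0.08 ± 0.07 (adjusted p = 0.312), which became -0.38 with library totals (adjusted p = 5.76e-05) and 0.24 without WT starved replicate 1 (adjusted p = 0.0101). At -1.68 ± 0.09 (adjusted p = 1.40e-12), Irf9 had the interaction furthest from 0 among the 9 genes.

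Irf7, the factor that amplifies interferon alpha production and is itself induced through ISGF3, was nearly confined to KO-labelled cells. It stood at 60.4 and 59.9 CPM in KO-labelled starved libraries and at 134 and 133 CPM in KO-labelled fed libraries. WT starved libraries held 0.461 and 0.212 CPM, from 15 and 7 counts, against 0.625 and 0.526 CPM in WT fed libraries, from 27 and 22 counts. The lowest KO-labelled library was far above the highest WT one. KO-labelled cells were 178-fold higher when starved (7.47 ± 0.12, adjusted p = 4.94e-22) and 230-fold higher when fed (7.85 ± 0.09, adjusted p = 2.21e-24). These sizes lay above those of 98.7% and 98.9% of all genes tested, by absolute change. Starvation lowered Irf7 by 2.22-fold in KO-labelled cells (-1.15 ± 0.05, adjusted p = 2.18e-15). The WT change, -0.78 ± 0.34, rested on a few counts: its adjusted p of 0.0393 became 0.0572 with RLE size factors, 0.0695 with DESeq2 and 0.222 in a fit of the 4 WT libraries. It was also lost without WT starved replicate 2 (-0.24) or WT fed replicate 1 (-0.65). The interaction was -0.37 ± 0.36 (adjusted p = 0.397) and turned to 0.16 without WT starved replicate 1.

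Irf3, the constitutive relative of Irf7 that waits in the cytoplasm for phosphorylation, had a smaller label difference that was wider in starved cells. It stood at 29.4 and 27.8 CPM in KO-labelled starved libraries and at 30.8 and 31.6 CPM in KO-labelled fed libraries. WT starved libraries held 12.7 and 10.9 CPM, against 19.3 and 18.6 CPM in WT fed libraries. The 4 groups did not overlap. KO-labelled cells were 2.41-fold higher when starved (1.27 ± 0.08, adjusted p = 5.19e-12) and 1.65-fold higher when fed (0.72 ± 0.07, adjusted p = 1.46e-08). The change with starvation in KO-labelled cells was -0.13 ± 0.07 (adjusted p = 0.0938), and it passed the threshold under 6 alternatives, at -0.39 with library totals, -0.18 without either WT starved replicate and -0.16 with RLE size factors among them. WT cells had a 1.60-fold lower level when starved (-0.68 ± 0.09, adjusted p = 2.43e-07). The interaction was 0.55 ± 0.11 (adjusted p = 0.000172). The coding transcript row of Irf3 held 98.3% of the count of the non-coding row read here.

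Irf1, an activator that interferon gamma induces through GAS elements, fell with starvation under either label. It stood at 11.1 and 11.1 CPM in KO-labelled starved libraries and at 52.7 and 53.0 CPM in KO-labelled fed libraries. Starved WT libraries had 12.0 and 9.66 CPM, against 44.8 and 48.5 CPM in WT fed libraries. The starved groups overlapped, and each starved library was below each fed one. The fall was 4.76-fold in KO-labelled cells (-2.25 ± 0.07, adjusted p = 4.95e-17) and 4.31-fold in WT cells (-2.11 ± 0.08, adjusted p = 5.05e-16), larger than the absolute change of 89.7% and 82.0% of all genes. The interaction was -0.14 ± 0.11 (adjusted p = 0.275), which turned to 0.06 with library totals and passed the threshold at -0.43 without WT starved replicate 2. Between the labels Irf1 differed by 0.03 ± 0.09 when starved (adjusted p = 0.743) and by 0.18 ± 0.06 when fed (adjusted p = 0.0173). The starved value turned to -0.03 with RLE size factors or DESeq2 and to -0.18 without WT starved replicate 2, and reached 0.35 with library totals (adjusted p = 0.00165). The fed call was lost without either KO-labelled fed replicate (0.18 and 0.17) or WT fed replicate 1 (0.12).

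Irf2, which competes with Irf1 for the same sites, stood at 14.0 and 11.1 CPM in KO-labelled starved libraries and at 29.7 and 29.4 CPM in KO-labelled fed libraries. WT starved libraries held 20.6 and 19.8 CPM, against 24.2 and 24.5 CPM in WT fed libraries. The 4 groups did not overlap, and KO-labelled cells held both the highest and the lowest of them. Starvation lowered Irf2 by 2.36-fold in KO-labelled cells (-1.24 ± 0.09, adjusted p = 1.57e-11) and by 1.20-fold in WT cells (-0.27 ± 0.09, adjusted p = 0.00845), with an interaction of -0.98 ± 0.12 (adjusted p = 5.05e-07). The WT call was lost with DESeq2 (-0.20, adjusted p = 0.0786) and without WT starved replicate 2 (-0.16). KO-labelled cells were lower than WT cells when starved (-0.70 ± 0.09, adjusted p = 5.82e-07) and higher when fed (0.28 ± 0.08, adjusted p = 0.00381).

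Stat3, the transducer of interleukin-6 family cytokines, stood at 143 and 139 CPM in KO-labelled starved libraries and at 233 and 227 CPM in KO-labelled fed libraries. Starved WT libraries had 102 and 103 CPM, against 137 and 135 CPM in WT fed libraries. The groups did not overlap, although the starved KO-labelled and the fed WT libraries lay close. KO-labelled cells were 1.38-fold higher when starved (0.46 ± 0.04, adjusted p = 1.09e-10) and 1.69-fold higher when fed (0.76 ± 0.03, adjusted p = 1.47e-14). Starvation lowered Stat3 by 1.63-fold in KO-labelled cells (-0.71 ± 0.03, adjusted p = 2.41e-14) and by 1.33-fold in WT cells (-0.41 ± 0.04, adjusted p = 8.02e-10). The interaction of -0.30 ± 0.05 (adjusted p = 1.83e-05) missed the threshold with library totals, at -0.10.

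**Figure D4:**
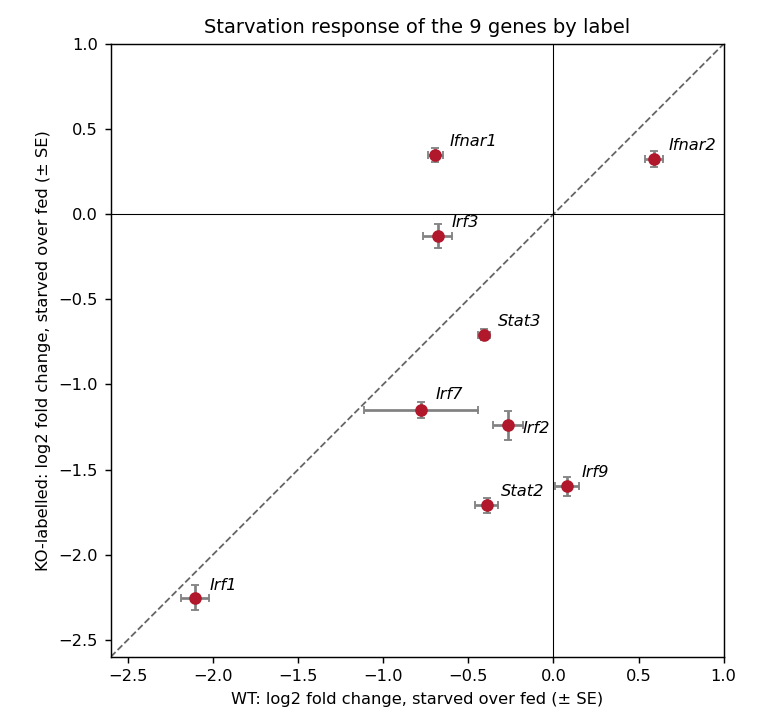
Starvation response of the 9 genes in KO-labelled cells (vertical axis) and in WT cells (horizontal axis), as log2 fold change of starved over fed with SE. On the dashed line the responses are equal; Irf1 lies near it at -2.25 in KO-labelled and -2.11 in WT cells, while Irf9 (-1.60 in KO-labelled, 0.08 in WT) and Ifnar1 (0.35 in KO-labelled, -0.69 in WT) lie away from it.

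Set against each other per transcript length, in CPM per kilobase, the 9 genes were ordered differently under the 2 labels. In KO-labelled fed cells Irf7 led at 69.7, followed by Stat3 at 50.9, Stat2 at 46.6, Irf9 at 31.5 and Irf1 at 24.7, with Ifnar1 at 19.2, Irf3 at 15.4, Ifnar2 at 14.8 and Irf2 at 11.8. In WT fed cells Stat3 led at 30.1, followed by Irf1 at 21.8, Ifnar1 at 20.3, Ifnar2 at 13.5, Irf2 at 9.73, Irf3 at 9.33, Irf9 at 5.28, Stat2 at 4.36 and Irf7 at 0.301 CPM per kilobase. The length of Stat3 is uncertain, since its 3 rows have nearly equal counts and matched models of 2927 to 6042 bases. In KO-labelled fed cells its level would be 78.6 with the shortest model, above Irf7, and 38.1 CPM per kilobase with the longest, below Stat2. In WT fed cells Stat3 led with each of its lengths, at 22.5 to 46.4 CPM per kilobase, if Ifnar2 is read over 3047 bases. The length of Ifnar2 is uncertain too. Its shorter row, of 1099 bases, held 76.6% and 77.7% of the longer row's count in KO-labelled fed libraries. In WT fed libraries it held 77.7% and 74.1%. The Ifnar2 levels given here may therefore be too low, and its place in either order is uncertain. Across groups, Irf7, Stat2, Stat3 and Irf3 shared 1 order of mean levels: KO-labelled fed, KO-labelled starved, WT fed, WT starved. The highest mean exceeded the lowest by 397-fold for Irf7, 14.0-fold for Stat2, 2.64-fold for Irf3 and 2.25-fold for Stat3, against 1.94-fold for Ifnar1 and 1.51-fold for Ifnar2.

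Over the 8 libraries, log2 levels of Stat2 correlated with those of Irf9 at 0.98 and of Irf7 at 0.95 (Pearson's r), while Irf1 and Ifnar2 stood at -0.93. The points are 4 pairs of replicates that share a scaling, so these values are a description. Among 14409 other genes, those most like Irf9 were Cmpk2, Oas3 and St3gal1, and those most like Stat2 were Rspo3, Ddx60 and Myo10, all at r of 0.997 to 0.998. Cmpk2, Oas3 and Ddx60 are interferon-stimulated genes. Cmpk2 had 0 counts in each WT library and Oas3 had 3 to 8, so both passed the filter only through KO-labelled libraries. Their likeness to Irf9 is therefore set largely by the KO-labelled groups. Those most like Irf7 were Prdx5, Hoxd13 and Snap47, those most like Irf1 were Ckap2l, Car5b and Rac3, and those most like Ifnar1 were Ttpal, Rnf103 and Sec22a, at r of 0.995 to 0.999. The nearest were Acad8, Ppp1r26 and Unc50 for Irf3, Uaca, Ninl and Tax1bp3 for Irf2, Pde6d, Sdc3 and Ints7 for Stat3, and Eif2s1, Tyw5 and Rpl37a for Ifnar2, at r of 0.987 to 0.999.

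Few counts came from the ligands of this pathway. Of 17 interferon genes in the table, 1, Ifnz, passed the filter on low counts. Ifnb1, the interferon beta gene, had 5 and 6 counts in KO-labelled starved libraries and 6 and 2 in KO-labelled fed libraries, against 0 and 4 in WT starved libraries and 0 and 0 in WT fed libraries. Ifnb1 did not pass the filter on low counts, so no test of a difference in it is given. Ifnz had 7 and 32 counts in KO-labelled starved libraries and 73 and 56 in KO-labelled fed libraries, against 2 and 0 in WT starved libraries and 28 and 17 in WT fed libraries.

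Of the 4 kinases under the receptor, 1 rose and 2 fell with starvation under either label. Of all genes, 79.7% in KO-labelled and 81.6% in WT cells were called in either direction, so such counts set the kinases apart little. The counts also depended on the scaling. With library totals all 4 fell in KO-labelled cells, while 1 rose and 3 fell in WT cells. Jak1, which sits on IFNAR2, changed with starvation by 0.13 ± 0.03 in KO-labelled cells (log2; adjusted p = 0.000391), a value that turned to -0.13 with library totals, and by 0.94 ± 0.03 in WT cells (adjusted p = 2.01e-17). Tyk2, which sits on IFNAR1, changed by 0.04 ± 0.07 with starvation in KO-labelled cells (adjusted p = 0.590, but -0.22 and 0.00470 with library totals) and by -1.09 ± 0.08 in WT cells (adjusted p = 1.36e-11), an interaction of 1.13 ± 0.10 beside that of 1.04 for Ifnar1. Jak3, otherwise best known from lymphocytes, was higher in KO-labelled cells, by 2.73 ± 0.19 when starved and 1.99 ± 0.12 when fed. Jak2 changed by -0.29 ± 0.04 with starvation in KO-labelled cells and by -0.08 ± 0.04 in WT cells, where it did not pass (adjusted p = 0.118, but -0.53 and 2.09e-10 with library totals).

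Of the other STAT genes, 4 were tested. All 4 were higher in fed KO-labelled than fed WT cells, and all 4 fell with starvation under either label. Of all genes, 34.5% were higher in the fed comparison, and 40.3% and 44.8% fell with starvation in KO-labelled and WT cells. Stat5a changed the most of the 3 named here, by -2.18 ± 0.05 with starvation in KO-labelled cells and -1.66 ± 0.05 in WT cells, and Stat6 the least, by -0.39 ± 0.04 and -0.36 ± 0.04. Stat5b changed by -0.81 ± 0.05 and -0.45 ± 0.05. Among other IRF genes, Irf4 and Irf8 were too low to test, and Irf5 was 2.01 ± 0.20 higher in fed KO-labelled cells. When starved, Irf5 differed by 0.24 ± 0.21 (adjusted p = 0.302), at 4.59 and 2.87 CPM in KO-labelled against 3.22 and 3.06 CPM in WT libraries, a value that passed at 0.55 with library totals (adjusted p = 0.0189). Irf2bp2, whose product binds IRF2 as a corepressor, was lower in KO-labelled starved cells, at 43.9 and 44.5 CPM against 190 and 176 CPM in WT starved cells (-2.05 ± 0.05). Irf2bp1, its relative, went the other way, at 1.60 ± 0.07 in the same comparison.

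Downstream, 36 ISGF3 target genes, the interferon-stimulated antiviral genes, were read. The list was drawn up with the high interferon-stimulated genes of these libraries known, so its higher level in KO-labelled cells is part of how it was chosen and not a result. Its summed level was 2676 to 2687 CPM in KO-labelled starved libraries and 4739 to 4745 CPM in KO-labelled fed libraries. In WT libraries it was 394 to 401 CPM when starved and 363 to 364 CPM when fed. B2m alone averaged 1788 CPM in KO-labelled starved and 1276 CPM in KO-labelled fed cells. It averaged 292 CPM in WT starved and 161 CPM in WT fed cells. B2m was thus higher with starvation under either label, and the sum does not show how the other genes of the list moved. Of the 36, 25 passed the filter on low counts in WT libraries alone, and the other 11 were tested only through KO-labelled libraries. Cmpk2 had 0 counts in every WT library. With starvation, 34 fell and 1 rose in KO-labelled cells, against 18 and 6 in WT cells (21 and 3 with library totals), beside 40.3% and 44.8% of all genes that fell. The median change in KO-labelled cells was -2.67. The list was highest in KO-labelled fed cells, so its choice also favoured falls from that group, and these values are a description. Iigp1, a guanosine triphosphatase against intracellular parasites, stood at 0.421 and 0.661 CPM in KO-labelled starved libraries, against 53.2 and 52.2 CPM in KO-labelled fed libraries. Oas3, an activator of antiviral RNA decay, stood at 2.06 and 1.93 CPM against 67.2 and 66.9 CPM in the same groups, and Cmpk2, a mitochondrial nucleotide kinase, at 0.266 and 0.302 CPM against 18.7 and 21.3 CPM. Their changes were -6.57 ± 0.13, -5.07 ± 0.10 and -6.11 ± 0.20. The fall was uneven within the list: Rsad2, the antiviral enzyme viperin, stood at 13.8 and 15.3 CPM in KO-labelled starved libraries, against 12.8 and 12.7 CPM in KO-labelled fed libraries. Among genes of the list with a mean of at least 5 CPM, the largest changes in WT cells were fitted for Parp14, Parp9 and Gbp2, and each rested on few counts when starved. Parp14 had 4 and 0 counts in WT starved libraries, against 57 and 75 in WT fed libraries. Parp9 had 8 and 10 counts against 252 and 257, and Gbp2 had 8 and 12 counts against 232 and 260, in the same groups.

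Of 19 tested negative regulators of the pathway, 10 fell and 6 rose with starvation in KO-labelled cells, against 9 and 9 in WT cells. With library totals these counts were 13 and 6, against 12 and 7. Of all genes, 40.3% fell and 39.4% rose in KO-labelled cells, against 44.8% and 36.7% in WT cells, so calls were common over all genes too. Usp18, which blocks signalling at IFNAR2 and is itself an ISGF3 target, stood at 28.0 and 27.1 CPM in KO-labelled starved libraries and at 119 and 123 CPM in KO-labelled fed libraries, against 2 to 10 counts in each WT library. Socs3 and Socs1, feedback inhibitors of the JAK kinases, fell under either label, with log2 changes of -2.47 and -1.39 in KO-labelled cells and -2.29 and -1.98 in WT cells. Others of the list, Socs4 and Pias4 among them, stood higher when starved under either label. Socs4 averaged 30.5 CPM in KO-labelled starved and 16.0 CPM in KO-labelled fed cells. In WT cells Socs4 averaged 55.4 CPM when starved, against 14.2 CPM when fed. Pias4 averaged 55.1 CPM in KO-labelled starved and 32.4 CPM in KO-labelled fed cells. In WT cells Pias4 averaged 157 CPM when starved, against 35.3 CPM when fed. Of 12 kinases, adaptors and ligases that act on IRF3 and IRF7, 9 rose and 3 fell with starvation in KO-labelled cells, against 6 and 3 in WT cells, beside the 79.7% and 81.6% of all genes called in either direction. Ikbke, a kinase of both factors, was 2.89 ± 0.13 higher in KO-labelled starved cells and 0.90 ± 0.09 higher in KO-labelled fed cells than in WT cells. With library totals the counts of this list became 5 and 4 in KO-labelled cells, against 6 and 5 in WT cells.

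Around Stat3, 11 genes of interleukin-6 family cytokines and receptors were tested, of which 7 fell and 2 rose with starvation in KO-labelled cells, against 6 and 2 in WT cells (8 and 1, against 8 and 0, with library totals), again beside 79.7% and 81.6% of all genes called. Lif, a cytokine that signals through STAT3, averaged 16.6 ± 0.522 CPM in KO-labelled starved cells and 16.7 ± 0.567 CPM in KO-labelled fed cells, against 1.31 ± 0.185 CPM in WT starved cells and 3.59 ± 0.0334 CPM in WT fed cells (SD, n = 2 each). Of 18 tested STAT3 target genes, 11 fell and 6 rose with starvation in KO-labelled cells, against 13 and 4 in WT cells (11 and 5, against 14 and 3, with library totals), beside the same shares of all genes. Bcl3, a nuclear regulator of NF-kB, changed by -3.62 ± 0.13 in KO-labelled cells and -4.42 ± 0.19 in WT cells. Pim1, of the same list, ran the other way under either label. It stood at 88.6 and 82.7 CPM in KO-labelled starved libraries, against 34.4 and 31.5 CPM in KO-labelled fed libraries. WT starved libraries held 405 and 392 CPM of Pim1, against 23.8 and 19.3 CPM in WT fed libraries. Lcn2, an acute-phase protein, stood at 411 and 400.5 CPM in KO-labelled starved libraries, against 12.4 and 13.1 CPM in WT starved libraries.

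**Figure D5:**
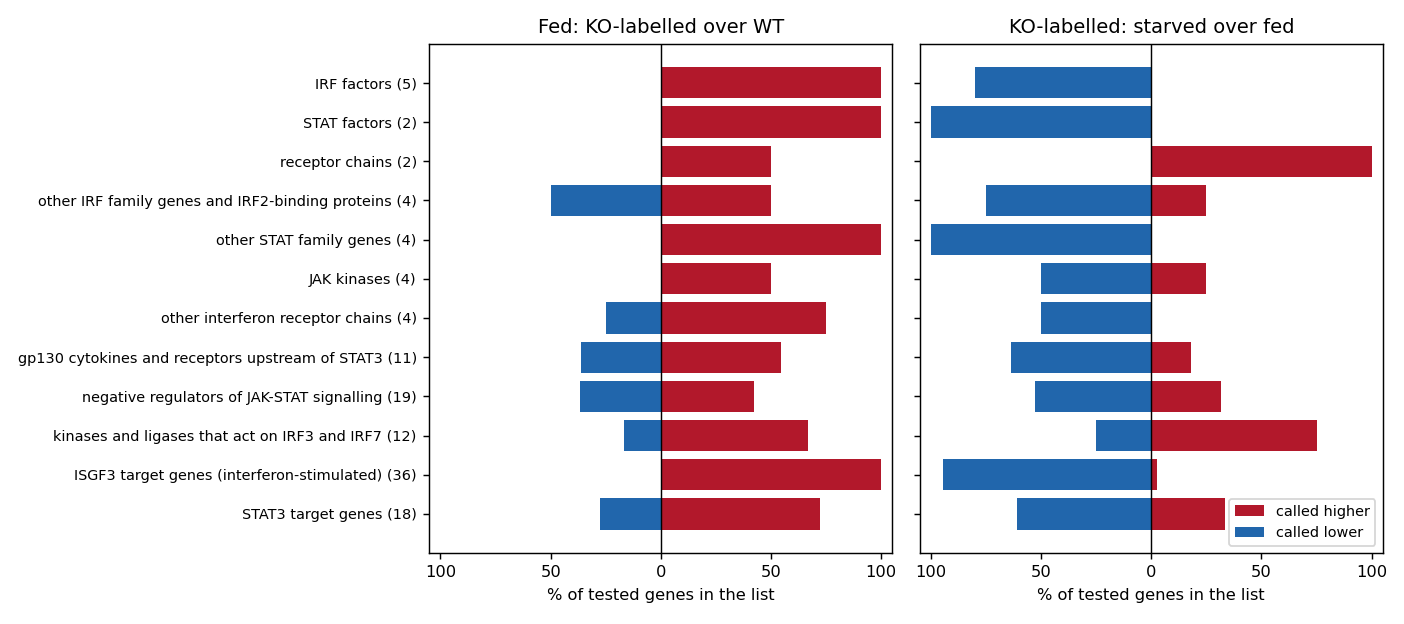
Share of the tested genes of each list that were called higher (right of 0) or lower (left of 0), in percent, for KO-labelled over WT cells when fed (left) and for starved over fed KO-labelled cells (right). The number of tested genes is in brackets. The list of 36 ISGF3 target genes was drawn up with the high genes of these libraries known. Of them, 11 were tested only through KO-labelled libraries, so the bar of this list in the left panel is no result. In the right panel 34 were lower, a description only, since the list was highest in KO-labelled fed cells.

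Markers of macrophages and blood cells, other cells in which these factors are prominent, were also read. Of 18 markers in the table, 5 passed the filter, and the 18 summed to 53.8 to 54.9 CPM in KO-labelled starved libraries, 21.7 to 22.3 CPM in KO-labelled fed libraries, 7.03 to 10.3 CPM in WT starved libraries and 19.3 to 19.7 CPM in WT fed libraries. Ptprc, Emr1, Fcgr1, Tyrobp and Cd3e had 0 counts in every library, but other markers of the list were counted. Lyz2 had 19 and 24 counts in KO-labelled starved libraries and 38 and 19 in KO-labelled fed libraries. Each WT library held 0 to 4 counts of it. Fcer1g had 18 and 19 counts in KO-labelled starved libraries and 0 and 3 in KO-labelled fed libraries. In WT libraries Fcer1g had 0 and 0 counts when starved, against 13 and 9 when fed. Cd68, which fibroblasts also express, made up most of the sum in starved KO-labelled cells, at 40.9 and 40.7 CPM, against 3.63 and 3.36 CPM in fed KO-labelled cells. Csf1r, a receptor of macrophages, stood at 6.03 and 6.42 CPM in KO-labelled starved libraries and 0.438 and 0.398 CPM in KO-labelled fed libraries, against 0.829 and 1.82 CPM in WT starved libraries and 0.533 and 1.41 CPM in WT fed libraries. All 5 tested markers were called higher in KO-labelled than in WT cells when starved, with a median log2 difference of 2.79 (41.9% of all genes were called higher), and 3 of the 5 passed the filter in WT libraries alone. Cd14, another marker of the list, ran the other way with starvation. It stood at 5.90 and 6.69 CPM in KO-labelled starved libraries, against 16.8 and 17.9 CPM in KO-labelled fed libraries. In WT libraries it stood at 2.70 and 4.33 CPM when starved, against 16.2 and 16.0 CPM when fed. The sum was highest in KO-labelled starved cells, while Cd14 was highest in KO-labelled fed cells. Endothelial and epithelial markers were read too. The 8 endothelial markers summed to 53.2 to 55.5 CPM in WT starved libraries, mostly from Kdr at 54.8 and 52.8 CPM. Their sum was 6.48 to 7.03 CPM in KO-labelled starved, 3.02 to 4.52 CPM in KO-labelled fed and 2.75 to 2.85 CPM in WT fed libraries. The 7 epithelial markers summed to at most 2.825 CPM in each library. The part of other cells in the results was not tested beyond these values.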

How the data were processed

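RNA of 8 libraries was analysed from whole-number read counts per RefSeq transcript that the authors deposited without normalisation. TopHat2 2.0.9, bedtools and the build mm9 appear in the submitters' processing notes, with no roles. How strand, counting and filters were set is not given in the sources used here. Rows of 1 gene repeat the same reads, so for each of 23366 symbols the row of largest total was kept. A further 4 columns matched no labelled sample and were not used. No row lacked a gene name.

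Groups were taken from the sample titles. The test was edgeR's quasi-likelihood F test (edgeR 4.0.16, R 4.3.3) on TMM-scaled counts of the 14418 genes that passed filterByExpr. The model had 4 group coefficients for 8 libraries (residual degrees of freedom: 4, Benjamini-Hochberg adjustment over all genes tested, threshold 0.05). The common biological coefficient of variation was 0.0341. CPM are counts scaled to 1000000 by the TMM-adjusted library total. The SE was derived from the test, by dividing the size of the log2 fold change by the root of F. The tests were tried on simulated counts. Alternatives were RLE size factors, library totals, DESeq2 1.42.0, other filters, summed rows, a replicate block, a fit of the 4 libraries compared and leaving out each library.

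Lengths and the Ifnar2 models came from GENCODE vM21 through RefSeq identifiers, and promoter letters from RefSeq. All 9 genes are described in each comparison. From the lists, JAK, STAT and IRF genes could be named. So could up to 3 called genes per comparison, with the largest change and a mean of at least 5 CPM. Ifnb1, B2m, Cd14, Cd68, Csf1r, Lyz2, Fcer1g, Kdr, Pim1, Pias4, Socs4, Rtp4 and the fibroblast markers were chosen after their values were seen. So were the starvation values of Rsad2 and Lif. Not every gene the rule allows is named. The genes and lists were chosen with earlier results of these data known.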

Additional observations from a re-analysis of the deposited data

Results flagged for a closer look

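The starvation response differed between the labels for 7 of the 9 genes by the interaction term (edgeR's quasi-likelihood test, adjusted over all genes). Given as the log2 change in KO-labelled cells minus that in WT cells, it was -0.98 for Irf2, 0.55 for Irf3, -1.68 for Irf9, -1.32 for Stat2, -0.30 for Stat3, 1.04 for Ifnar1 and -0.27 for Ifnar2. Ifnar1 was called in opposite directions, higher with starvation in KO-labelled cells and lower in WT cells. Of all genes tested, 64.5% had such a difference, and the label and the sex of the cells cannot be told apart.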

How the results depend on the processing

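The counts of all genes and of the 9 genes called stayed within 1.5 times of their values under every alternative run, for the 9 genes between 5 and 9 per comparison, and leaving out 1 library gave 6 to 9. Library totals moved the median of all genes by -0.26 (log2) for starvation in KO-labelled cells, -0.46 for starvation in WT cells, 0.32 and 0.12 for KO-labelled against WT cells starved and fed, and 0.20 for the interaction. The share of calls that were higher became 37.0% against 49.4%, 28.2% against 45.0%, 67.4% against 52.6%, 55.1% against 46.4%, and 67.0% against 52.9% with TMM. The sign turned with library totals for Irf9 in WT starvation (-0.38), Ifnar2 between starved groups (0.18), Ifnar1 between fed groups (0.033) and the Irf1 interaction (0.056). For Irf1 between starved groups it turned with RLE size factors (-0.027) and DESeq2 (-0.027), and leaving out 1 library gave -0.18 to 0.13. For the Irf7 interaction, leaving out 1 library gave -0.96 to 0.16. Further calls gained or lost by the 9 genes stand beside them. Calls of listed genes moved too, among them Rtp4 between starved groups (0.24, adjusted p = 0.0255), which missed the threshold with RLE size factors (0.18, adjusted p = 0.0897) and DESeq2 (0.17, adjusted p = 0.156); apart from scaling and left-out libraries, the cause was not tested. Same-numbered libraries did not deviate together (correlations of -0.0189 to 0.0141), so the numbers were not taken as pairs; a replicate block called 8, 8, 8, 8 and 7 of the 9 genes, as without it. Irf7 in WT cells rests on 7 to 27 counts per library, which limits its starvation response there. The Ifnar2 split was added after seeing the data.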
